A study of Rattus norvegicus with 6 samples.

Results

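The glucuronidation enzymes described here are 9 rat genes: the UDP-glucuronosyltransferases Ugt1a1, Ugt1a2, Ugt1a6, Ugt2b1, Ugt2b7, Ugt2b15 and Ugt2b37, and Ugdh and Ugp2, which make the sugar donor. They were chosen by symbol, and every probe whose accession maps to one of these symbols was taken, which gave 16 of the 61657 non-control probes on the array and 9 of the 15284 named genes. The choice was made with earlier results of these data known, so the differences between groups below are descriptions and do not support one another. The treated group consisted of 3 male Sprague-Dawley rats given o-anthranilic acid, an aromatic amino acid also called ortho-aminobenzoic acid, at 1000 mg/kg/day for 4 weeks. The vehicle group consisted of 3 males of the same strain given corn oil for 4 weeks. All animals were 5 weeks old at purchase and ate a basal diet. Total RNA of the renal cortex of each animal was labelled with Cy3 and read on its own single-colour Agilent array.

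Glucuronidation joins glucuronic acid to bilirubin, steroids, phenols and carboxylic acids, which makes them soluble enough to be excreted in bile or urine. UDP-glucuronosyltransferases of the endoplasmic reticulum carry out the transfer, and the kidney cortex, mainly its proximal tubule, is one of the tissues that has them. Ugp2 forms UDP-glucose and Ugdh oxidises it to UDP-glucuronic acid, the donor of the reaction. The Ugt1a genes are one locus in which each gene has its own first exon and promoter while the remaining exons are shared, so a probe in the shared part cannot tell one Ugt1a transcript from another. The Ugt2b genes are separate, closely related copies.

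Sequences around the gene starts are given for 5 members. They are windows of 300 bases from RefSeq on build GRCr8, with 250 bases before and 50 bases after each gene's start, 5′ to 3′ on the gene's strand, and all 9 members matched by symbol. Ugt1a6 and Ugt1a1 are shown because they start at separate promoters of one locus, Ugdh because it holds both motifs searched, and Ugt2b15 with Ugt2b37 because their windows are the most alike. Capitals mark GCGTG, the core of the xenobiotic response element bound by the aryl hydrocarbon receptor, and TGACNNNGC, the core of the antioxidant response element bound by Nrf2, on either strand.
Ugt1a6, chr9:96194768-96195067, plus strand: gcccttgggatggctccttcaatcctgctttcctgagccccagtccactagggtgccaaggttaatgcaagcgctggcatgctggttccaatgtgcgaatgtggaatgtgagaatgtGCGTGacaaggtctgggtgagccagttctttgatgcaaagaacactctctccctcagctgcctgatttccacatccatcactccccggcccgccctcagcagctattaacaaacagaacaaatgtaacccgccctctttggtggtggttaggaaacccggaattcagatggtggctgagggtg
Ugt1a1, chr9:96248893-96249192, plus strand: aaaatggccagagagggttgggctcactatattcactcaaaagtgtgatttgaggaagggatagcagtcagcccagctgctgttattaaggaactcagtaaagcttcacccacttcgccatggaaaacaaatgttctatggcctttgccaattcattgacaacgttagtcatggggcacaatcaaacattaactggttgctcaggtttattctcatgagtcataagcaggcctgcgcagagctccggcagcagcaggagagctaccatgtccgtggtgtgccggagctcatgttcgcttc
Ugdh, chr14:43202268-43202567, plus strand: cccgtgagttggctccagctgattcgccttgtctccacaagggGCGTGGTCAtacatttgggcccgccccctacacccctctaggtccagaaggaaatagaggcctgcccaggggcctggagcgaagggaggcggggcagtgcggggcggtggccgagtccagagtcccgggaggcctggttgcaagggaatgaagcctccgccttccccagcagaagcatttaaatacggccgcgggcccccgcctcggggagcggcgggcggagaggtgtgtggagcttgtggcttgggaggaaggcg
Ugt2b15, chr14:21122616-21122915, plus strand: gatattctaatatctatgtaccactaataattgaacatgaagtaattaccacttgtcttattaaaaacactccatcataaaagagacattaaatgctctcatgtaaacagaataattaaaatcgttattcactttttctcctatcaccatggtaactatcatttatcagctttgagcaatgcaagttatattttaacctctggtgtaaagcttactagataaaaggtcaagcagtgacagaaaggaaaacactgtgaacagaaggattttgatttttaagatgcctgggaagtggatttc
Ugt2b37, chr14:21171886-21172185, plus strand: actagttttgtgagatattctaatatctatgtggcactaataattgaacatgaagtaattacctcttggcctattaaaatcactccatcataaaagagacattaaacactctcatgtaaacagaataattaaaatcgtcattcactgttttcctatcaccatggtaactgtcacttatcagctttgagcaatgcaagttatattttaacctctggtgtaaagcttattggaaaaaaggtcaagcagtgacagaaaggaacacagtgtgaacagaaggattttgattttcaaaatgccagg

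GCGTG was present in the windows of 3 of the 9 members, Ugt1a6, Ugdh and Ugp2, against 29.7% of the 33469 windows of all genes. In Ugt1a6 it ended 129 bases before the start. TGACNNNGC was present in 1 of the 9 windows, that of Ugdh on the minus strand, against 12.1% of all windows, and it overlapped the GCGTG there. Neither motif was found in the windows of Ugt1a1, Ugt1a2 and the 4 Ugt2b genes. The Ugt2b15 and Ugt2b37 windows were identical at 268 of 313 aligned positions, or 85.6%, and those of Ugt2b7 and Ugt2b15 at 69.2%. Among the Ugt1a, Ugdh and Ugp2 windows no pair passed 52.5%. GC content was 66.7% for Ugdh and for Ugp2, from 46.0% to 53.7% for the Ugt1a genes, and from 31.7% to 36.3% for the Ugt2b genes.

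Well above background were 63.6%, 68.2% and 64.6% of probes for treated replicates 1, 2 and 3, and 69.1%, 69.3% and 65.9% for vehicle replicates 1, 2 and 3. Treated replicate 2 lay alone on the second of 2 slides, so for that animal slide and treatment cannot be told apart. All 6 marker genes of the proximal tubule were above background, and their mean log2 signal relative to the vehicle mean ranged from 0.01 to 0.10 on treated arrays and from -0.03 to 0.03 on vehicle arrays. Markers of the straight proximal tubule stood at 1.29, 0.78 and 0.09 on treated arrays and at 0.40, -0.33 and -0.07 on vehicle arrays. Of their 9 probes 7 had log2 fold changes above 0, against 46.9% of all probes, and 2 below. None reached an unadjusted p under 0.05 in limma, and none was apart between the groups. A probe of Slc22a13 was well above background on only 2 treated arrays and 1 vehicle array. The part of these markers in the results below was not tested. Of 3 hepatocyte markers 2 were above background, with means from -0.24 to 0.89 on treated arrays and from -0.17 to 0.27 on vehicle arrays. Erythrocyte markers stood at 0.25, 0.57 and 0.68 on treated arrays and at -0.19, -0.07 and 0.25 on vehicle arrays. All 5 of their probes, from 3 genes, had log2 fold changes above 0, against 46.9% of all probes, with a median of 0.47. At an unadjusted p under 0.05 in limma 3 were higher, against 3.36% of all probes. On 2 every treated array was above every vehicle array, against 6.19% of all probes. None passed limma's adjusted threshold, and the part of these markers in the results below was not tested. In whole tissue, fewer cells of a type and less RNA per cell cannot be told apart. The number of arrays limits the precision.

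Treated and vehicle animals were compared for the transcripts of the conjugating enzymes and of the donor's synthesis. Values are log2 processed signal minus the array's own 75th percentile, so 0 is the 75th percentile of that array and 1 unit is a doubling, and levels are compared only within a probe. All 6 Ugt1a probes and 3 of the 5 measured Ugt2b probes were higher on every treated array than on every vehicle array. Of the 4 probes for the donor's synthesis, 1 was. That makes 10 of 15 measured probes, and 6.19% of all 41551 probes tested did the same. None of the 15 passed the threshold of 0.05 in limma with Benjamini-Hochberg adjustment over all 41551 probes, and 0% of all probes did. At an unadjusted p under 0.05, limma gave 10 of the 15, against 8.47% of all probes, and all 10 were higher, against 3.36% of all probes higher and 5.11% lower. No member probe was lower on every treated array than on every vehicle array, which 8.78% of all probes were, and 14 of the 15 had a log2 fold change above 0, against 46.9% of all probes. The median log2 fold change of the 15 probes was 0.60, beside -0.01 over all probes tested. These probes are not independent, since those of 1 gene share a target and the Ugt1a genes share exons. The 15 probes were well above background on all 6 arrays, so none was measured only because of 1 group, and the remaining probe, for Ugt2b1, was above background on none.

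**Figure D1:**
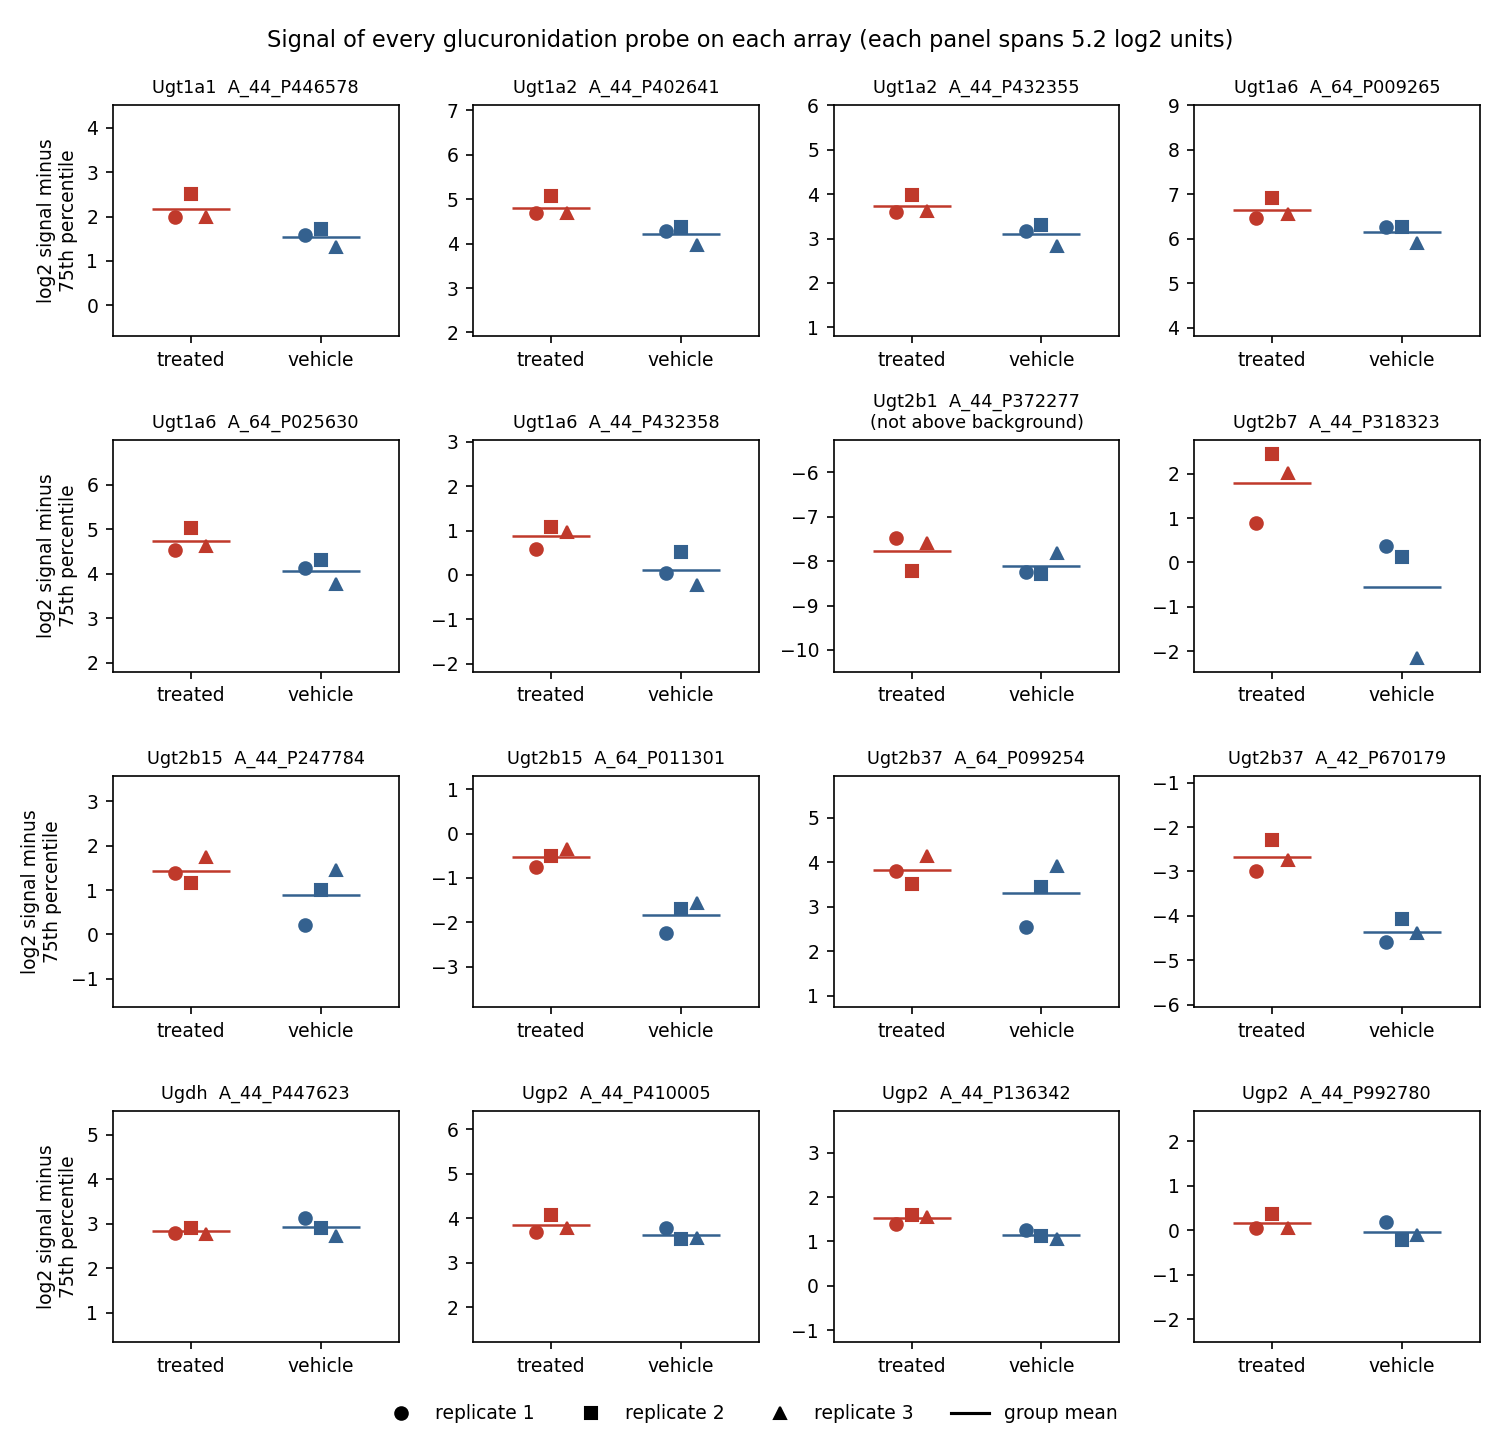
Log2 signal minus the array's 75th percentile (vertical axis) of the 16 probes in treated (red, left) and vehicle (blue, right) animals, 1 point per array, with symbols for replicates 1, 2 and 3 and lines for group means; each panel covers the same span of log2 units. The groups are apart in the 6 Ugt1a panels, in Ugt2b7, and in 1 panel each of Ugt2b15, Ugt2b37 and Ugp2.

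Ugt1a1 conjugates bilirubin. Its probe A_44_P446578 (NM_012683) read 2.00, 2.51 and 1.99 in treated replicates 1, 2 and 3, against 1.58, 1.72 and 1.32 in vehicle replicates 1, 2 and 3. The groups did not overlap, treated replicate 2 was the highest array and vehicle replicate 3 the lowest. The log2 fold change was 0.63 ± 0.18 (SE, n = 3 per group), a 1.54-fold higher mean in treated animals, with a limma adjusted p of 0.485.

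Ugt1a2 is a Ugt1a form of the rat. Its probe A_44_P402641 (NM_201423) read 4.68, 5.07 and 4.69 in treated animals, against 4.29, 4.37 and 3.98 in vehicle animals. Its other probe, A_44_P432355, read 3.60, 3.97 and 3.61 in treated animals, against 3.18, 3.31 and 2.84 in vehicle animals. Both were apart between the groups, with log2 fold changes of 0.60 ± 0.15 and 0.62 ± 0.16 (SE). The difference between these probes within an array varied by only 0.07 log2 units over the 6 arrays.

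Ugt1a6 conjugates small planar phenols and is a Ugt1a form known to respond to the aryl hydrocarbon receptor. It had 3 probes, of which A_64_P009265 and A_64_P025630 carry one RefSeq transcript (NM_001039691) and A_44_P432358 another (NM_057105). A_64_P009265 read 6.47, 6.91 and 6.56 in treated animals, against 6.27, 6.27 and 5.91 in vehicle animals. A_64_P025630 read 4.53, 5.03 and 4.63 in treated animals, against 4.12, 4.31 and 3.76 in vehicle animals. A_44_P432358 read 0.59, 1.08 and 0.96 in treated animals, against 0.05, 0.52 and -0.23 in vehicle animals. None of the 3 probes overlapped between the groups, although treated replicate 1 and vehicle replicate 2 lay close together on A_44_P432358. Their log2 fold changes were 0.49 ± 0.16, 0.67 ± 0.19 and 0.76 ± 0.22 (SE), or 1.41-fold, 1.59-fold and 1.70-fold, with limma adjusted p of 0.506, 0.485 and 0.488.

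The 6 Ugt1a probes ranked the extreme animals alike. Relative to each probe's own vehicle mean, they stood between 0.32 and 0.49 in treated replicate 1, between 0.75 and 0.97 in treated replicate 2, and between 0.41 and 0.85 in treated replicate 3. In vehicle animals they stood between -0.07 and 0.12 in replicate 1, between 0.12 and 0.40 in replicate 2, and between -0.34 and -0.22 in replicate 3. Treated replicate 2 was the highest and vehicle replicate 3 the lowest array on each of the 6 probes. Which of these probes lie in the shared exons was not tested, so the values for single Ugt1a genes are uncertain. With the slide as a block, which is the same fit as leaving out treated replicate 2, the 6 log2 fold changes ranged from 0.36 to 0.66, beside 0.49 to 0.76 over all arrays.

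**Figure D2:**
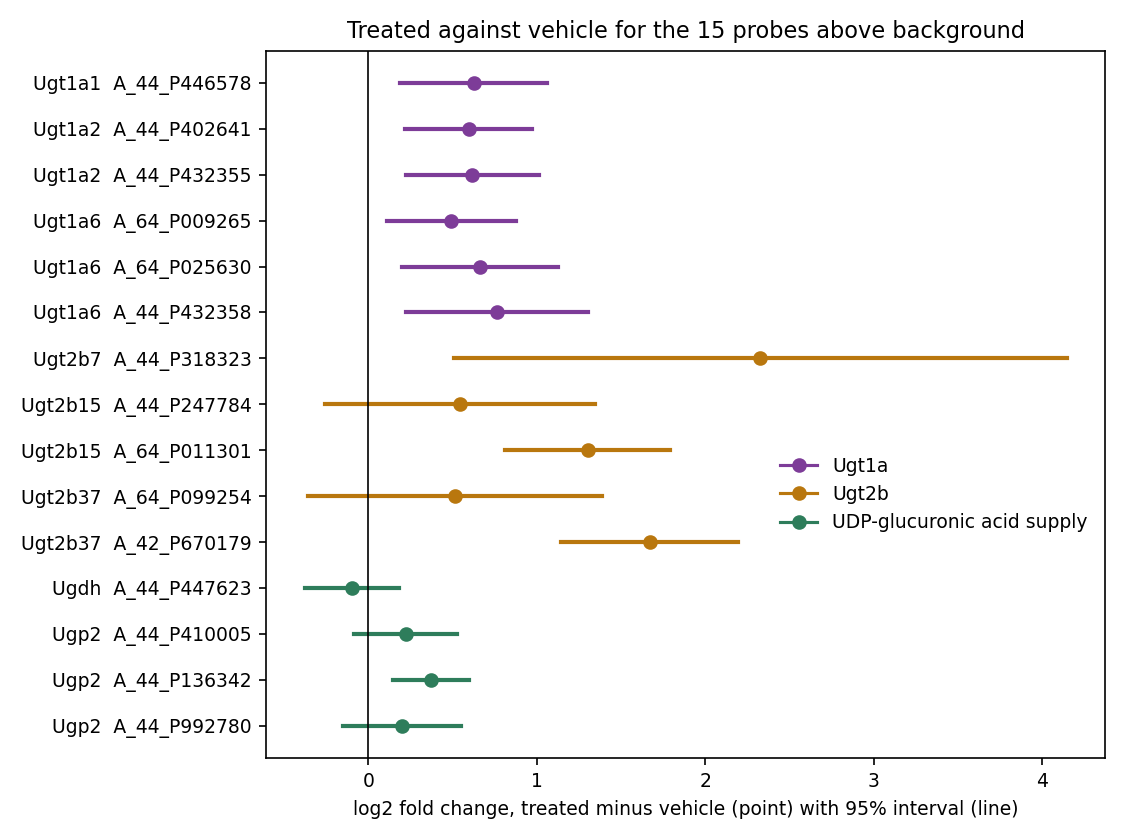
Log2 fold change, treated minus vehicle (horizontal axis, point), with its 95% interval from limma (line) for the 15 measured probes, coloured by family. The 6 Ugt1a probes lie between 0.49 and 0.76, the Ugt2b probes between 0.52 and 2.33, and the Ugdh and Ugp2 probes between -0.10 and 0.37.

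The Ugt2b family covers steroids and many drugs. Ugt2b1, a form that conjugates testosterone in rat liver, had 1 probe (A_44_P372277, NM_173295), not well above background on any array, at -7.49, -8.22 and -7.59 in treated animals and -8.24, -8.28 and -7.82 in vehicle animals. No fold is given for it. Ugt2b7, whose human counterpart conjugates morphine and bile acids, had 1 probe (A_44_P318323, NM_173323), which read 0.89, 2.43 and 2.02 in treated animals, against 0.38, 0.12 and -2.14 in vehicle animals. The groups did not overlap, but vehicle replicate 3 lay far below the other vehicle animals, with a vehicle SD of 1.39. The log2 fold change was 2.33 ± 0.75 (SE), the largest of the 15 probes, with a 95% interval from 0.51 to 4.15 and a limma adjusted p of 0.506. It was 1.53 without vehicle replicate 3.

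Ugt2b15, whose human counterpart conjugates androgens, had 2 probes that differed in how they separated the groups. A_64_P011301 (NM_153314) read -0.75, -0.50 and -0.36 in treated animals, against -2.25, -1.70 and -1.57 in vehicle animals. These groups were well apart, and the log2 fold change was 1.30 ± 0.20 (SE), a 2.47-fold higher mean, with a limma adjusted p of 0.339. A_44_P247784 (NM_153314) read 1.39, 1.17 and 1.73 in treated animals, against 0.20, 1.00 and 1.45 in vehicle animals. Here the groups overlapped, with vehicle replicate 3 above treated replicates 1 and 2, and the log2 fold change was 0.54 ± 0.33. It was 0.20 without vehicle replicate 1.

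Ugt2b37 showed the same split. A_42_P670179 (NM_001007264) read -3.00, -2.30 and -2.74 in treated animals, against -4.59, -4.06 and -4.39 in vehicle animals. The groups were more than 1 log2 unit apart, the log2 fold change was 1.67 ± 0.22 (SE), a 3.18-fold higher mean, and the limma adjusted p was 0.290, the lowest of the 15 probes. This probe was dim, with processed signals from 38.1 to 60.1 in vehicle animals and from 117 to 198 in treated animals. After normexp background correction, which used an offset of 50, the log2 fold change of this probe was 0.86. A_64_P099254 (NM_001007264) read 3.79, 3.51 and 4.14 in treated animals, against 2.55, 3.44 and 3.91 in vehicle animals. The groups overlapped on this probe, with a log2 fold change of 0.52 ± 0.36, which was 0.14 without vehicle replicate 1.

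The overlapping probes of Ugt2b15 and Ugt2b37 ran in parallel with the probe of a gene that was not chosen, Ugt2b35 (A_44_P236068). Ugt2b35 read 5.48, 5.31 and 5.84 in treated animals, against 4.27, 5.14 and 5.49 in vehicle animals. Over the 6 arrays the difference between this probe and A_44_P247784 of Ugt2b15 varied by 0.10 log2 units, and that between it and A_64_P099254 of Ugt2b37 by 0.22. Within the named gene the difference between its own 2 probes varied by 1.35 for Ugt2b15 and by 2.49 for Ugt2b37. The deposited files used here hold no probe sequences, so which transcripts each probe can bind, including copies of the same family, was not tested, and the values for single Ugt2b genes are uncertain for this reason.

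**Figure D3:**
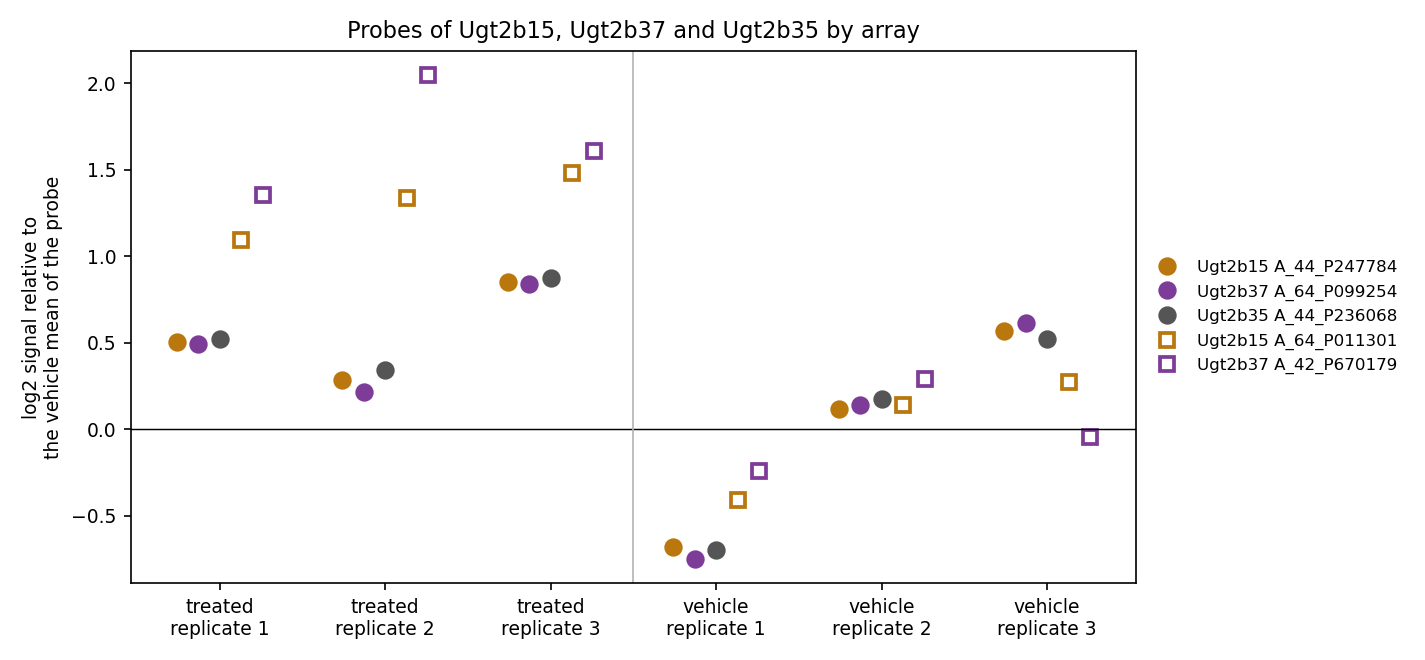
Log2 signal relative to the probe's own vehicle mean (vertical axis) on each treated and vehicle array for the 2 probes each of Ugt2b15 and Ugt2b37 and the probe of Ugt2b35. The filled circles lie together on every array and overlap between the groups, while the open squares stand at 1.09 or more on the 3 treated arrays and at 0.29 or less on the 3 vehicle arrays.

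For the enzymes that make UDP-glucuronic acid, log2 fold changes lay between -0.10 and 0.37. Ugdh (A_44_P447623, NM_031325) read 2.79, 2.91 and 2.78 in treated animals, against 3.12, 2.91 and 2.74 in vehicle animals. The groups overlapped, and the log2 fold change was -0.10 ± 0.12 (SE), with a 95% interval from -0.38 to 0.18. It was 0.0026 without vehicle replicate 1. Ugp2 (NM_001024743) had 3 probes. A_44_P136342 read 1.40, 1.60 and 1.56 in treated animals, against 1.26, 1.12 and 1.06 in vehicle animals, without overlap, and its log2 fold change was 0.37 ± 0.09, or 1.29-fold, with a limma adjusted p of 0.453. A_44_P410005 read 3.69, 4.07 and 3.78 in treated animals, against 3.77, 3.54 and 3.56 in vehicle animals. A_44_P992780 read 0.05, 0.37 and 0.04 in treated animals, against 0.19, -0.22 and -0.10 in vehicle animals. On these 2 probes vehicle replicate 1 lay among the treated animals, and the log2 fold changes were 0.22 ± 0.13 and 0.20 ± 0.14, or 0.11 and 0.09 with the slide as a block.

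**Figure D4:**
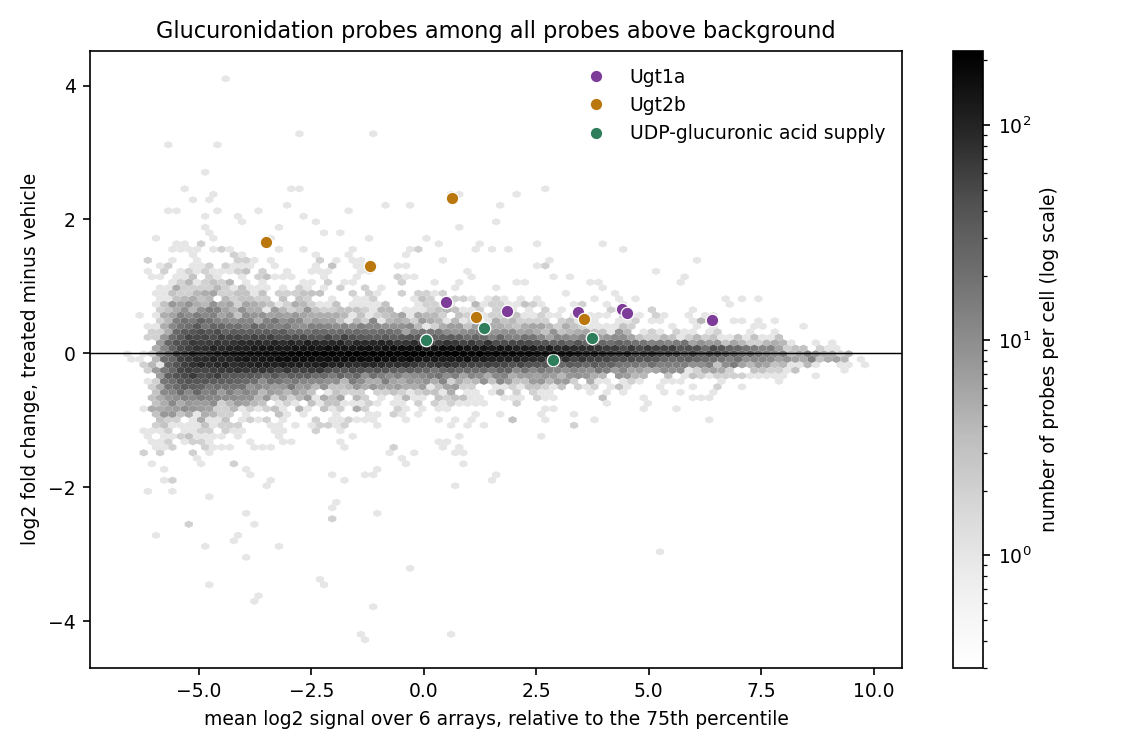
Log2 fold change, treated minus vehicle (vertical axis), against mean log2 signal over the 6 arrays (horizontal axis) for all 41551 probes tested (grey, darker where more probes lie), with the 15 glucuronidation probes in colour. The Ugt1a and Ugt2b probes lie above 0, and the Ugdh probe lies at -0.10.

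Other genes of the pathway were taken from lists drawn up by role. Of the other UDP-glucuronosyltransferases, 7 of 18 listed genes were on the array by these names and 3 were above background. Ugt1a9 (A_64_P363385), which has its own first exon in the Ugt1a locus, read -3.12, -2.96 and -3.12 in treated animals, against -3.53, -3.15 and -4.01 in vehicle animals, apart by a narrow margin, with a log2 fold change of 0.50 ± 0.21 (SE). Ugt2b35 had a log2 fold change of 0.58 ± 0.33, and Ugt8, which transfers galactose to ceramide, of -0.09 ± 0.36. Ugt2a1, Ugt2a3, Ugt2b and Ugt2b10 were not measured above background on enough arrays to be tested.

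Exporters of conjugates were higher in treated animals on all 13 measured probes of 5 genes, against 46.9% of all probes, with a median log2 fold change of 0.31, and 7 of the probes were higher on every treated array than on every vehicle array, against 6.19% of all probes. Abcc2, the apical pump for glucuronides, read 2.26, 2.47 and 2.76 in treated animals, against 1.50, 2.03 and 1.74 in vehicle animals, with a log2 fold change of 0.74 ± 0.18 (SE). The 4 probes of Abcc4, another efflux pump, had log2 fold changes from 0.47 to 0.62. Those of Abcc3, a basolateral pump for glucuronides, ranged from 0.21 to 0.33, those of Abcg2 were 0.20 and 0.24, and those of Abcc1 ranged from 0.06 to 0.12. None passed limma's adjusted threshold.

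For steps before and beside the transferases the median log2 fold changes were 0.00, -0.04 and -0.11, beside -0.01 over all probes. Of all probes 46.9% were above 0. The 15 measured probes for sugar supply up to UDP-glucose had a median log2 fold change of 0.00, with 8 above and 7 below 0. Ppa1, a pyrophosphatase, and Hk2, a hexokinase, stood at 0.15 ± 0.09 and 0.43 ± 0.34 (SE). The Hk2 probe was dim, with processed signals from 18.8 to 52.6, and was well above background on only 2 of the 3 vehicle arrays. Another Hk2 probe was well above background on no array. The 22 probes of other users and carriers of UDP-glucose and UDP-glucuronic acid had a median of -0.04, with 7 above and 15 below 0. On the probe with the smallest p, Slc35d1, a carrier of UDP-glucuronic acid, stood at 0.15 ± 0.11, while its other probes stood at -0.12 and 0.02, and the probe of Slc35d2 at 0.14 ± 0.15. Ext1, a heparan sulphate polymerase, stood at -0.35 ± 0.14 on the probe with the smallest p and at -0.14, -0.06 and -0.02 on its others. Uxs1, which turns UDP-glucuronic acid into UDP-xylose, stood at -0.16 ± 0.08 on 1 probe and at -0.04 on the other. The 17 probes for glucuronide cleavage and glucuronate use had a median of -0.11, with 4 above and 13 below 0. Cryl1 and Gusb, the β-glucuronidase, stood at 0.10 ± 0.16 and 0.03 ± 0.10 on their probes with the smallest p above 0, while the other 2 probes of Gusb were below 0. Ces2c, a carboxylesterase, and Miox, which opens the inositol ring to glucuronate, stood at -0.16 ± 0.07 and -0.15 ± 0.09. The other probe of Miox stood at -0.18 ± 0.13. Over all lists of other genes, regulators and known targets of the aryl hydrocarbon receptor and Nrf2 included, 104 probes were measured, with a median of -0.01, and limma called none of them after adjustment and 13 at an unadjusted p under 0.05, against 8.47% of all probes. Of these 12 were higher, against 3.36% of all probes, and 1 was lower, against 5.11%. The 12 were 6 probes of exporters and 6 of the known targets.

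The genes most like a member over the 6 arrays were found among the probes with the highest mean signal of 11912 other named genes, by Pearson's r over arrays that include both groups. For Ugt1a6 they were Aspa, Ugt1a2 and Lingo4, with r of 0.990, 0.990 and 0.987. Whether the probes of Ugt1a6 and Ugt1a2 lie in the exons these genes share was not tested. For Ugdh they were Wasl, Zfand2a and Cfap119, with r of 0.995, 0.988 and 0.986. For Ugp2 they were Lrrcc1, B4galt4 and Dgka, with r of 0.987, 0.986 and 0.980. With 6 arrays and this many genes, values of this size are a description of these arrays. Ugt2b1 had no measured probe to compare.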

How the data were processed

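Renal cortex RNA of 3 treated and 3 vehicle rats was read on 1 single-colour array each. Per the submitters' processing notes, version 10.7 of Agilent Feature Extraction was used. Per the file headers, the deposited scanner files give linear intensity, background-subtracted and not normalised between arrays, and flag the spots that lie well above background. A deposited table of the authors' own values holds a ratio of that signal to the array's 75th percentile, found by comparison with the scanner files. Its columns matched the scanner files within each group under other replicate numbers, and replicates are named here by scanner file.

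From 61657 non-control probes, 84 that target spike-in RNA and 47 marked as outliers were dropped, and saturation was absent. Accessions were named through RefSeq on GRCr8. The array was designed on another build, so no gene coordinates are given, and those of the start windows are RefSeq's own. The log2 signal minus each array's 75th percentile was tested with limma 3.58.1 in R 4.3.3 (lmFit, eBayes) for each of the 41551 probes that passed the background flag on 3 or more of 6 arrays, with Benjamini-Hochberg adjustment. The limma test was tested on simulated data. Files were read with data.table (version 1.17.8) and jsonlite 2.0.0. Start windows were aligned end to end with Biopython 1.88.

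The members and lists were chosen with earlier results of these data known. From each list of over 6 measured genes the 2 with the smallest p in each direction are named, and from shorter lists all, except that some genes the rule names are not reported here. The labels call the samples biological replicates. Alternatives were normexp background correction (offset 50, on median signals), quantile and median scaling, the authors' values, the percentile over probes detected everywhere, no filter or a filter of all 6 arrays, 1 probe or the mean of probes per gene, array weights, a robust fit with a variance trend, the replicate number or slide as a block, and each array left out.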

Additional observations from a re-analysis of the deposited data

How the results depend on the processing

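The 15 measured probes kept the sign of their log2 fold change under every alternative in which they were measured, with 1 exception: Ugdh ranged from -0.19 to 0.0026 when 1 array was left out, and 0.0026 was its value without vehicle replicate 1. No alternative put a member probe past limma's adjusted threshold. Over all probes limma called 0 in the comparison as reported (3519 at an unadjusted p under 0.05), 6 with normexp background correction, 6 with a robust fit and variance trend, 4 with the slide as a block, 2 after averaging each gene's probes, 1 with the filter of all 6 arrays, and from 0 to 4 when 1 array was left out, with 3 without treated replicate 1, 4 without treated replicate 2 and 3 without vehicle replicate 2. The member probes higher on every treated array than on every vehicle array were 10 of 15, or from 10 to 12 without 1 array, where fewer arrays are compared. They were 4 of 8 with 1 probe per gene, the one with the highest mean signal. That choice leaves out the group-separating probes of Ugt2b15, Ugt2b37 and Ugp2. After averaging each gene's probes the count was 6 of 8, where Ugt2b15 stood at 0.92 and Ugt2b37 at 1.09. The groups overlapped on the averaged Ugp2. The share of all probes, 6.19%, belongs to the comparison as reported. No such share is given for these alternatives, so their counts stand without a background. With the replicate number as a block 0 probes were called (3193 unadjusted). Deviations from the group means of same-numbered arrays had correlations of 0.0074, -0.0439 and -0.005. These values cannot show whether the animals were paired. A pairing need not leave such a mark, and the authors' table matched the scanner files under other replicate numbers. Probe A_42_P670179 of Ugt2b37 stood at 0.86 with normexp, beside 1.67 as reported, and the cause was not tested.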

Other observations

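Of the 19 measured probes for regulators of conjugation genes 5 had log2 fold changes above 0, against 46.9% of all probes, and 14 below. Their median was -0.06, and limma called none after adjustment. On 1 of the 19, a probe of Ahrr, every treated array was above every vehicle array, against 6.19% of all probes. Ahrr, the repressor of the aryl hydrocarbon receptor, read -1.04, -1.01 and -0.95 in treated animals and -1.19, -1.11 and -1.21 in vehicle animals. Its log2 fold change was 0.17 ± 0.07 (SE, n = 3 per group), with a limma adjusted p of 0.588. Ppara, the fatty acid receptor, and Nfe2l2, which encodes Nrf2, stood at -0.47 ± 0.21 and -0.22 ± 0.10 on their probes with the smallest p. Their other probes stood at -0.30 ± 0.19 and -0.13 ± 0.10.

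Genes known as targets of the aryl hydrocarbon receptor or Nrf2 had a median of 0.71 over 15 measured probes. Of these 11 were above 0, against 46.9% of all probes, and 4 below, and none passed limma's adjusted threshold. Gstp1, a glutathione transferase (A_64_P170600), read 4.88, 5.61 and 5.13 in treated animals and 3.87, 3.71 and 3.29 in vehicle animals, and had treated replicate 2 as its highest and vehicle replicate 3 as its lowest array, as the Ugt1a probes did. Nqo1, a quinone reductase (A_44_P476733), read -3.84, -3.15 and -3.05 in treated animals and -4.62, -4.64 and -4.42 in vehicle animals, and there treated replicate 3 was the highest. Txnrd1, thioredoxin reductase, and Srxn1, sulfiredoxin, stood at -0.18 ± 0.10 and -0.35 ± 0.29 on their probes with the smallest p below 0. Another probe of Txnrd1 (A_44_P456738) stood at 0.14 ± 0.08, higher on every treated array than on every vehicle array, and the other probe of Srxn1 at 0.13 ± 0.18. Cyp1a1, Cyp1a2 and Cyp1b1, the cytochromes that the aryl hydrocarbon receptor induces, were not well above background on any array.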
